A study of Bos taurus with 16 samples.

Results

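The calgranulins are 3 small proteins of the S100 family, and their transcripts were followed here in bovine monocyte-derived macrophages (MDMs), which are blood monocytes matured into macrophages in culture. The members are S100A8, listed under the Ensembl identifier ENSBTAG00000012640, S100A9, listed under ENSBTAG00000006505, and S100A12, listed under ENSBTAG00000012638. They were selected by identifier, as 3 of the 27607 genes of the count files, by a rule that uses no measured value, although earlier results of these data were known when it was written. The files give identifiers without symbols, and no source used here pairs these identifiers with symbols, so the symbols could not be checked and stand for these 3 identifiers. In the RefSeq gene table of the assembly ARS-UCD2.0 the 3 symbols are direct neighbours on chromosome 3, in the order S100A8, S100A12 and S100A9, with no other gene between them.

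Calgranulins are made in large amounts by neutrophils and monocytes. S100A8 and S100A9 pair with each other as calprotectin, which binds calcium and withholds zinc and manganese from microbes, and outside the cell the pair acts as a danger signal through Toll-like receptor 4. S100A12 is a related protein that binds calcium, zinc and copper and is known as a ligand of the receptor RAGE. Levels of these genes usually drop when monocytes mature into macrophages and can be raised again by bacterial products such as lipopolysaccharide (LPS), the glycolipid that coats gram-negative bacteria.

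The MDMs came from 8 healthy animals no older than a year, 4 Taurine animals of the Holstein breed, numbered 1, 20, 3 and 50, and 4 Indicine animals of the Gir breed, numbered 2, 5, 6 and 7. Blood mononuclear cells that stuck to the dish were kept for 11 days in medium with fetal bovine serum, and the cells of each animal then stayed 48 hours either in medium alone (Unstimulated) or with LPS of Escherichia coli O111:B4 at 100 ng/ml. This gave 16 libraries in 4 groups of 4, with 1 library per animal and stimulus, so that replicates are animals and each LPS library has its own Unstimulated control. The cultures were not sorted after the washes that removed loose cells, and macrophage, neutrophil and monocyte markers could not be looked up by symbol and were not analysed here. In bulk RNA, more calgranulin transcript per cell and more cells that carry it cannot be told apart.

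Each library held between 7362247 and 10296054 counts on genes. Levels are given in CPM, the counts of a gene per 1000000 counts on all genes of its library, so that 1 CPM stood for 7.36 to 10.3 counts. The lowest count of any member was 562 and the highest was 79860, so counting error was small beside the spread between animals. Some libraries stood apart from their group. On the first principal component of log2 CPM, which held 37.0% of the variance, Unstimulated Taurine animal 3 scored 19.7, whereas the other 3 Unstimulated Taurine libraries scored between -71.6 and -56.7. The same library held the lowest level of all 16 for each of the 3 members, and values without this animal are given beside the results it moves most. The Unstimulated Indicine libraries were split on the same component. Animals 5 and 6 scored 46.4 and 43.2, close to the LPS treated Indicine libraries at 45.9 to 54.5, whereas animals 2 and 7 scored -39.9 and -14.5. Animals 5 and 6 were also the ones with the smallest fold changes of each member, and the part of this split in the calgranulin values was not tested.

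S100A8 was higher with LPS in each of the 8 animals. In Unstimulated Indicine MDMs it stood at 194 CPM in animal 2, 570 CPM in animal 5, 307 CPM in animal 6 and 470 CPM in animal 7. With LPS the same animals had 863, 1115, 593 and 1309 CPM. Every LPS treated Indicine library was above every Unstimulated one, as for 1.54% of all genes in that breed, although the gap between animal 6 with LPS and animal 5 without it was small. In Unstimulated Taurine MDMs S100A8 stood at 276 CPM in animal 1, 212 CPM in animal 20, 69.2 CPM in animal 3 and 425 CPM in animal 50. With LPS these animals had 870, 1469, 686 and 2442 CPM. Animal 50 was the highest of the breed and animal 3 the lowest, both before and after LPS. The LPS and Unstimulated values did not overlap, as for 1.39% of all genes in that breed. All 8 LPS libraries, of both breeds together, were above all 8 Unstimulated libraries, a pattern that 0.177% of the 12968 genes measured (1 CPM or more in 4 or more libraries) shared. The fold change within an animal ran from 1.93 in animal 6 to 4.45 in animal 2 among the Indicine animals, and from 3.15 in animal 1 to 9.92 in animal 3 among the Taurine animals.

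S100A9, the partner of S100A8, was also higher with LPS in all 8 animals, but its levels in the groups overlapped. Unstimulated Indicine MDMs held 594 CPM in animal 2, 1803 CPM in animal 5, 928 CPM in animal 6 and 1311 CPM in animal 7, and with LPS the values were 2343, 2671, 1660 and 3084 CPM. Animal 6 with LPS thus remained below animal 5 without it. Unstimulated Taurine MDMs held 515 CPM in animal 1, 241 CPM in animal 20, 115 CPM in animal 3 and 757 CPM in animal 50, and with LPS the values were 1671, 1790, 721 and 5087 CPM. Animal 3 with LPS remained just below animal 50 without it. Fold changes within animals lay between 1.48 and 3.94 in the Indicine breed and between 3.24 and 7.43 in the Taurine breed.

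S100A12 had values of 1135 CPM in animal 2, 2959 CPM in animal 5, 1740 CPM in animal 6 and 2446 CPM in animal 7 in Unstimulated Indicine MDMs, and of 3580, 4329, 2857 and 4829 CPM with LPS. As for S100A9, animal 6 with LPS lay below animal 5 without it. In Unstimulated Taurine MDMs the values were 2103 CPM in animal 1, 1526 CPM in animal 20, 388 CPM in animal 3 and 2405 CPM in animal 50, and with LPS they were 4322, 6445, 3175 and 7756 CPM. The Taurine values with and without LPS did not overlap, as for 1.39% of all genes in that breed. Fold changes within animals lay between 1.46 and 3.15 in the Indicine and between 2.06 and 8.19 in the Taurine animals. A level higher with LPS in 8 of 8 animals, as all 3 members had, was found in 2.49% of the 12968 genes.

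**Figure D1:**
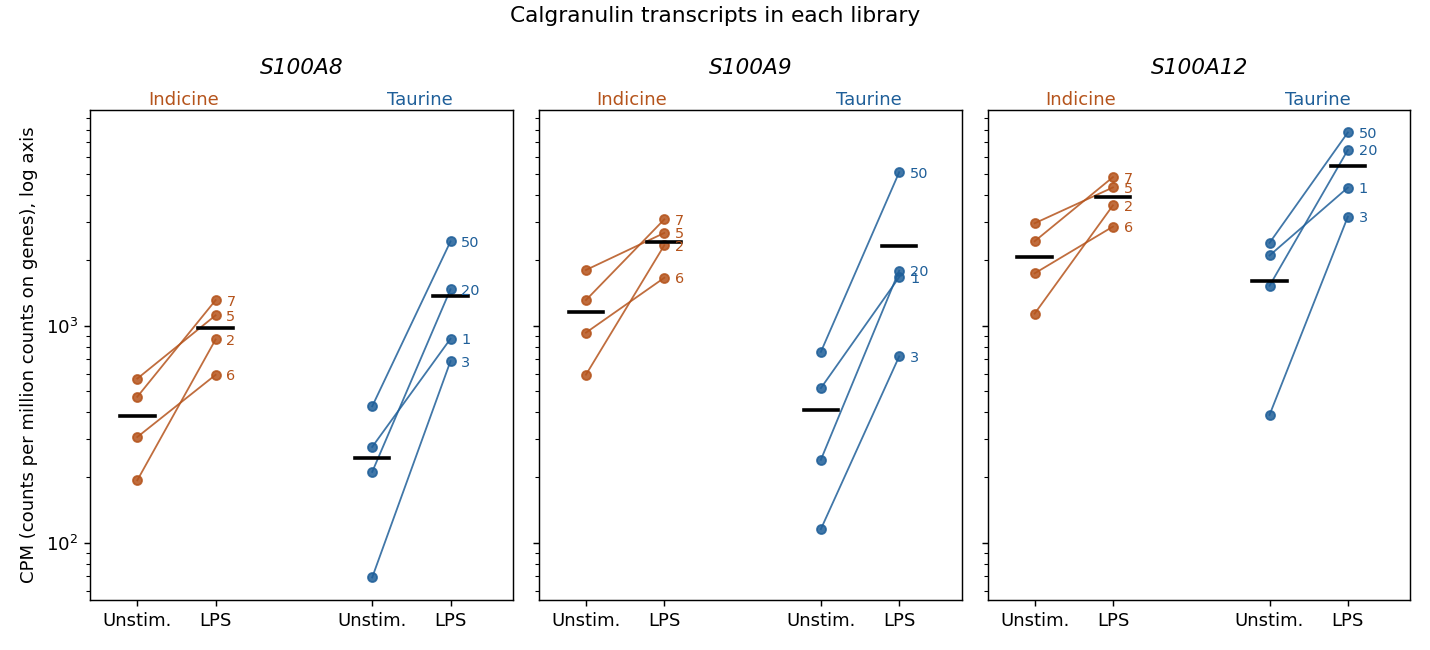
CPM of S100A8, S100A9 and S100A12 on a log axis in Unstimulated and LPS treated MDMs, with 1 point per library, a line joining the 2 libraries of an animal, the animal's number beside its LPS value and a black bar at the mean of each group of 4. All 24 lines slope upwards, and Taurine animal 3 starts lowest in each panel, at 69.2 CPM for S100A8, 115 CPM for S100A9 and 388 CPM for S100A12.

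The order of the 4 groups was not the same for the 3 members. For S100A8 the mean was lowest in Unstimulated Taurine MDMs, at 245 ± 148 CPM (SD, n = 4), followed by Unstimulated Indicine MDMs at 385 ± 167 CPM, LPS treated Indicine MDMs at 970 ± 311 CPM and LPS treated Taurine MDMs at 1367 ± 791 CPM. The breeds thus changed places with LPS, but within each stimulus their libraries overlapped. S100A12 had the same order, with 1605 ± 890 and 2070 ± 799 CPM in Unstimulated Taurine and Indicine MDMs and 3899 ± 864 and 5424 ± 2062 CPM in LPS treated Indicine and Taurine MDMs, and each group overlapped its neighbours in this order. For S100A9 the means were 407 ± 287 CPM in Unstimulated Taurine, 1159 ± 520 CPM in Unstimulated Indicine, 2317 ± 1907 CPM in LPS treated Taurine and 2439 ± 601 CPM in LPS treated Indicine MDMs, again with every neighbour overlapping. The spread of LPS treated Taurine MDMs was wide for S100A9, with a coefficient of variation of 82.3% against 24.7% in LPS treated Indicine MDMs, and animal 50 alone held 5087 CPM. The 3 genes together took a median of 0.360% of all gene counts in Unstimulated and 0.745% in LPS treated Indicine MDMs. In Taurine MDMs the medians were 0.244% and 0.828%, and the share reached 1.53% in animal 50 with LPS.

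Whether LPS changed the calgranulins was first tested over both breeds, with edgeR's quasi-likelihood test on all 16 libraries and breed as a covariate. A gene was called where the FDR (the Benjamini-Hochberg adjusted p over all genes tested) was under 0.05 and the absolute log2 fold change at least 1. All 3 members were called as higher with LPS, against a background of 1.03% of the 12968 genes called higher. The log2 fold change of S100A8 was 2.07 (SE 0.41, FDR 0.015). S100A9 rose by 1.96 on the log2 scale (SE 0.48, FDR 0.040) and S100A12 by 1.50 (SE 0.35, FDR 0.032). By fold change S100A8 ranked 68th, S100A9 75th and S100A12 133rd of all genes tested from the top, and the median log2 fold change of all genes was -0.04. The calls of S100A9 and S100A12 were lost when single animals were left out. S100A9 had an FDR of 0.086 without Indicine 2, 0.054 without Indicine 5, 0.053 without Indicine 6, 0.10 without Indicine 7, 0.096 without Taurine 1 and 0.098 without Taurine 20. S100A12 had an FDR of 0.071 without Indicine 2, 0.052 without Indicine 5, 0.086 without Indicine 7, 0.068 without Taurine 1, 0.091 without Taurine 20 and 0.076 without Taurine 50. The call of S100A8 held without any 1 of the 8 animals.

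The same comparison with the animal as a block, which sets each LPS library against the Unstimulated library of its own animal, called 709 genes in place of 211, and 1.82% of genes as higher. With 1 animal left out these counts ran from 79 (without Indicine 7) to 365 (without Taurine 3) without the block and from 416 (without Taurine 50) to 854 (without Taurine 3) with it. The 3 members were called again, with log2 fold changes of 2.13 (SE 0.28, FDR 0.0014) for S100A8, 1.98 (SE 0.29, FDR 0.0026) for S100A9 and 1.61 (SE 0.26, FDR 0.0041) for S100A12, and without any 1 of the 8 animals each of these 3 calls held. An exact two-sided sign-flip permutation test on the within-animal changes of log2(CPM + 1) gave p = 0.0078 for each gene, which is the smallest value 8 animals can give. The mean changes were 1.97 ± 0.86 for S100A8, 1.82 ± 0.89 for S100A9 and 1.47 ± 0.82 for S100A12 (SD, n = 8), on a scale that is relative to the library total.

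Within the single breeds, where 4 animals stood on each side, no member passed the main test. In Indicine MDMs the log2 fold changes were 1.46 for S100A8 (SE 0.36, FDR 0.19), 1.197 for S100A9 (SE 0.34, FDR 0.23) and 1.04 for S100A12 (SE 0.31, FDR 0.24). By this edgeR fit 0 of the 11913 genes were called in the Indicine breed (0%), with 1393 genes at an unadjusted p under 0.05. Without animal 6 the count was 33, without animal 5 it was 1, and without animal 2 or 7 it was 0. Other tests differed: DESeq2 called 352 genes, 0.995% of those it tested as higher, with the 3 members among them, and edgeR's exact test called 240, 1.02% as higher, with S100A8 and S100A9 among them. With the animal as a block edgeR called 0.168% of genes as higher and none of the members, whose log2 fold changes were 1.53 (FDR 0.066), 1.30 (FDR 0.084) and 1.12 (FDR 0.080) for S100A8, S100A9 and S100A12, while DESeq2 with the block called the 3 members and 1.33% of all genes as higher. Left out 1 at a time, Indicine animals 5 and 6 moved the edgeR fold changes without a block to 1.63 and 1.53 for S100A8, 1.45 and 1.23 for S100A9 and 1.21 and 1.07 for S100A12, none of them called. Without animals 2 and 7, again 1 at a time, they were 1.30 and 1.39 for S100A8, 1.012 and 1.131 for S100A9 and 0.889 and 1.014 for S100A12, also uncalled. In the blocked fit, S100A8 passed without animal 2 (1.28, FDR 0.031) and animal 6 (1.66, FDR 0.0495), and not without animal 5 (1.67, FDR 0.10) or animal 7 (1.50, FDR 0.33). The number of genes called in either direction by the blocked fit, 26 with all 4 animals, was 191 without animal 6, 57 without animal 2, 5 without animal 5 and 0 without animal 7.

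In Taurine MDMs S100A8 differed by 2.72 on the log2 scale (SE 0.61, FDR 0.26), S100A9 by 2.76 (SE 0.75, FDR 0.35) and S100A12 by 1.99 (SE 0.56, FDR 0.38). Again the edgeR fit called 0 of 12400 genes (0%), and an unadjusted p under 0.05 was found for 841. By DESeq2 162 genes were called, 0.917% of those tested as higher, with the 3 members among them, and edgeR's exact test called 117, 0.774% as higher, with S100A8 and S100A9 among them. The block changed this result for the Taurine breed. All 3 members were then called as higher with LPS, as were 1.78% of all genes. The 472 genes called in either direction became 8 without animal 20, 108 without animal 1, 164 without animal 50 and 1239 without animal 3. The members had blocked log2 fold changes of 2.77 (SE 0.27, FDR 0.0086) for S100A8, 2.69 (SE 0.25, FDR 0.0075) for S100A9 and 2.15 (SE 0.32, FDR 0.018) for S100A12. DESeq2 with the block called the 3 members too, and 2% of all genes as higher. Of the edgeR calls, those of S100A8 and S100A9 were lost without animal 20 (FDR 0.073 and 0.068), and that of S100A12 without animal 1 (FDR 0.055), animal 20 (FDR 0.12) or animal 50 (FDR 0.071). Without animal 3, whose Unstimulated library stood apart, the blocked log2 fold changes were 2.57 for S100A8, 2.69 for S100A9 and 1.84 for S100A12, all of them called. With 4 animals the exact sign-flip test cannot go below p = 0.125, so it has no power within a breed.

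**Figure D2:**
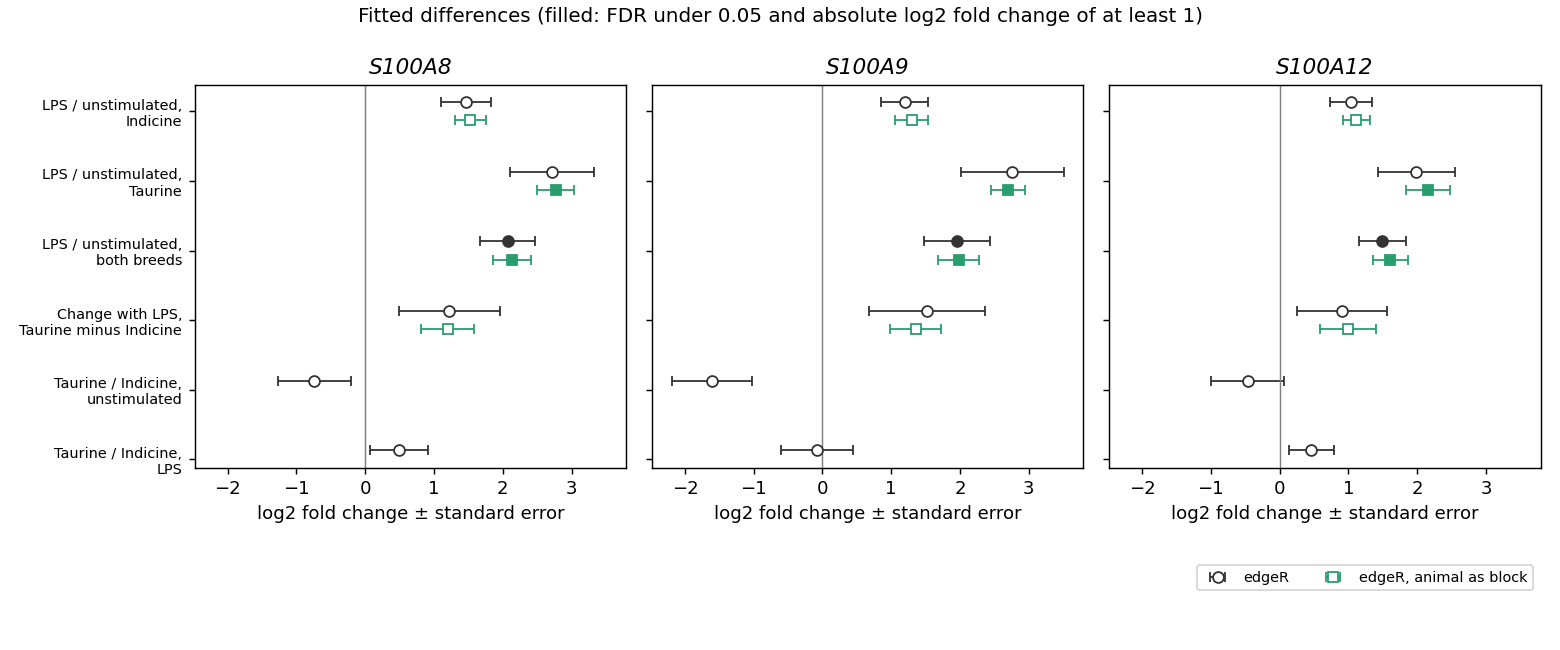
Log2 fold changes (points) and standard errors (bars) of the 3 members from edgeR's quasi-likelihood test, without a block (black circles) and with the animal as a block (green squares), for LPS over Unstimulated MDMs, for the difference between breeds in that change and for Taurine over Indicine MDMs. Filled symbols, which are called genes, appear for LPS over both breeds in either fit and for LPS in Taurine MDMs with the block, where S100A8 stood at 2.77, S100A9 at 2.69 and S100A12 at 2.15.

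The fold changes with LPS were numerically larger in the Taurine breed for each member, and this difference was tested on its own as an interaction. By edgeR over all 16 libraries it amounted to 1.22 for S100A8 (SE 0.73), 1.52 for S100A9 (SE 0.84) and 0.91 for S100A12 (SE 0.65), with an FDR above 0.99 for each. Of the 12968 genes 0 were called (0%), with 249 at an unadjusted p under 0.05, and DESeq2 called 2 (0.01%). With the animal as a block, edgeR gave differences of 1.196 (SE 0.39, FDR 0.51), 1.36 (SE 0.37, FDR 0.51) and 0.99 (SE 0.41, FDR 0.59), and again called 0 genes, with 1074 at an unadjusted p under 0.05, the 3 members among them. DESeq2 with the block called S100A8 (1.21, FDR 0.041) and S100A9 (1.37, FDR 0.011) but not S100A12 (FDR 0.15), among the 1391 genes to which it gave an adjusted p, of which it called 0.935%. An exact permutation test of the within-animal changes, 4 animals against 4, gave p = 0.057 for each member, with mean changes of 2.56 and 1.39 for S100A8, 2.49 and 1.15 for S100A9 and 1.96 and 0.98 for S100A12 in Taurine and Indicine animals. Without Taurine animal 3 the difference of these mean changes went from 1.18 to 0.93 for S100A8, from 1.34 to 1.29 for S100A9 and from 0.98 to 0.63 for S100A12 (exact permutation p = 0.11 for each), and the blocked edgeR differences were 0.98, 1.33 and 0.66. A difference between the breeds in the response of the calgranulins therefore passed neither the main test nor edgeR's blocked fit. The main test does not pair the libraries of an animal, and the fits disagreed on the difference for S100A8 and S100A9.

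Between the breeds themselves, no member passed the test in either state. In Unstimulated MDMs the log2 fold change of Taurine over Indicine was -0.74 for S100A8 (SE 0.53, FDR 0.63), -1.61 for S100A9 (SE 0.58, FDR 0.34) and -0.46 for S100A12 (SE 0.53, FDR 0.77) by edgeR, which called 40 of 12565 genes (0.318%) in this contrast. With 1 animal left out this count lay between 12 (without Indicine 7) and 49 (without Taurine 3), with 17 without Indicine 6, 19 without Taurine 1, 24 without Taurine 50 and 26 without Indicine 5. S100A9 had the largest of these differences, and exact permutation tests of its log2(CPM + 1) gave p = 0.057, against p = 0.26 for S100A8 and p = 0.49 for S100A12, where 4 animals against 4 cannot go below 0.029. Without Taurine animal 3 the fitted differences were smaller, at -0.44 for S100A8, -1.31 for S100A9 and -0.14 for S100A12. Without Taurine animal 50 they were larger, at -1.14, -2.10 and -0.72, and none was called in either case. In LPS treated MDMs the values were 0.49 for S100A8 (SE 0.42, FDR 0.59), -0.07 for S100A9 (SE 0.52, FDR 0.97) and 0.46 for S100A12 (SE 0.33, FDR 0.49), in a contrast in which 7.35% of 11986 genes were called. The exact permutation tests gave p = 0.43, 0.63 and 0.31, and the sign for S100A9 turned with the animal left out, between -0.86 and 0.23. Without Taurine animal 50 the fitted values were 0.014 for S100A8 and 0.21 for S100A12, and without Taurine animal 3 they were 0.72 and 0.66, none of them called. The libraries of the breeds overlapped for each member in both states, whereas those of 7.86% of all genes in Unstimulated and 16.1% in LPS treated MDMs did not.

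The proportion of the members to each other was then compared as the ratio of their counts within a library, which does not depend on the library total or on its scaling. These ratios are not corrected for transcript length, so they can be compared between libraries but not read as molecules of one gene per molecule of the other. The ratio of S100A9 to S100A8 separated the breeds in both states. In Unstimulated Indicine MDMs it was 3.07 in animal 2, 3.16 in animal 5, 3.03 in animal 6 and 2.79 in animal 7, and with LPS it was 2.71, 2.40, 2.80 and 2.36. In Unstimulated Taurine MDMs it was 1.87 in animal 1, 1.14 in animal 20, 1.67 in animal 3 and 1.78 in animal 50, and with LPS 1.92, 1.22, 1.05 and 2.08. All 8 Indicine libraries were above all 8 Taurine libraries. The reads of both breeds had been aligned to 1 assembly, from Taurine cattle, and the part of this alignment in the ratio was not tested. The nearest libraries were Indicine 7 with LPS, at 2.36 (95% Clopper-Pearson interval 2.30 to 2.41, counting error only), and Taurine 50 with LPS, at 2.08 (2.05 to 2.11). Set against S100A8 in the same way, 0.147% of the other 12967 genes had ratios that did not overlap between the breeds over all libraries, 3.4% in Unstimulated and 7.91% in LPS treated MDMs. Set against S100A9, the shares were 0.27%, 24.6% and 7.01%. The difference of the mean log2 ratios, Taurine minus Indicine, was -0.92 in Unstimulated and -0.77 in LPS treated MDMs, and the exact permutation test gave p = 0.029 for each, the smallest value that 4 animals against 4 allow. These p-values are not corrected for the 36 exact tests made. With any 1 animal left out the difference stayed between -1.003 and -0.765 in Unstimulated and between -0.92 and -0.59 in LPS treated MDMs, where 3 animals against 4 cannot go below 0.057.

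LPS had no common effect on this ratio. It was lower with LPS in 4 of 4 Indicine animals and higher in 3 of 4 Taurine animals, with a mean log2 change of -0.15 ± 0.29 over all animals (SD, n = 8, exact sign-flip p = 0.18). The exception was Taurine animal 3, in which the ratio went from 1.67 to 1.05. Without this animal the mean log2 change over the others was -0.08 (exact sign-flip p = 0.36).

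The ratio of S100A12 to S100A8 moved with LPS in the same direction in every animal. It lay between 5.19 and 5.86 in Unstimulated and between 3.69 and 4.82 in LPS treated Indicine MDMs, and between 5.61 and 7.62 in Unstimulated and 3.18 and 4.97 in LPS treated Taurine MDMs. The mean log2 change was -0.51 ± 0.21 (SD, n = 8), with the ratio lower in 8 of 8 animals and an exact sign-flip p = 0.0078. S100A8 is itself among the genes with the largest fold changes, and 91.9% of all other genes had a ratio to S100A8 that was lower with LPS in 8 of 8 animals, so this pattern is shared with most genes. The breeds did not differ beyond the spread between animals in this ratio, with exact permutation p = 0.17 in Unstimulated and 0.83 in LPS treated MDMs.

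The ratio of S100A12 to S100A9 was added after the counts had been seen. In Unstimulated MDMs it was 1.91, 1.64, 1.88 and 1.87 in Indicine animals 2, 5, 6 and 7 and 4.08, 6.33, 3.36 and 3.18 in Taurine animals 1, 20, 3 and 50. The lowest Taurine value was above the highest Indicine value, with a difference of the mean log2 ratios of 1.16 (exact permutation p = 0.029). Set against S100A9, 24.6% of all other genes had ratios that did not overlap between the breeds in this state, so the separation is not particular to S100A12. With LPS the breeds overlapped, at 1.53 to 1.72 in the Indicine and 1.52 to 4.40 in the Taurine animals (exact permutation p = 0.14), since Taurine animal 50 reached 1.52, the lowest value of all 16 libraries. The change with LPS was -0.36 ± 0.47 on the log2 scale (SD, n = 8, exact sign-flip p = 0.078) and -0.46 without Taurine animal 3 (exact p = 0.016).

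**Figure D3:**
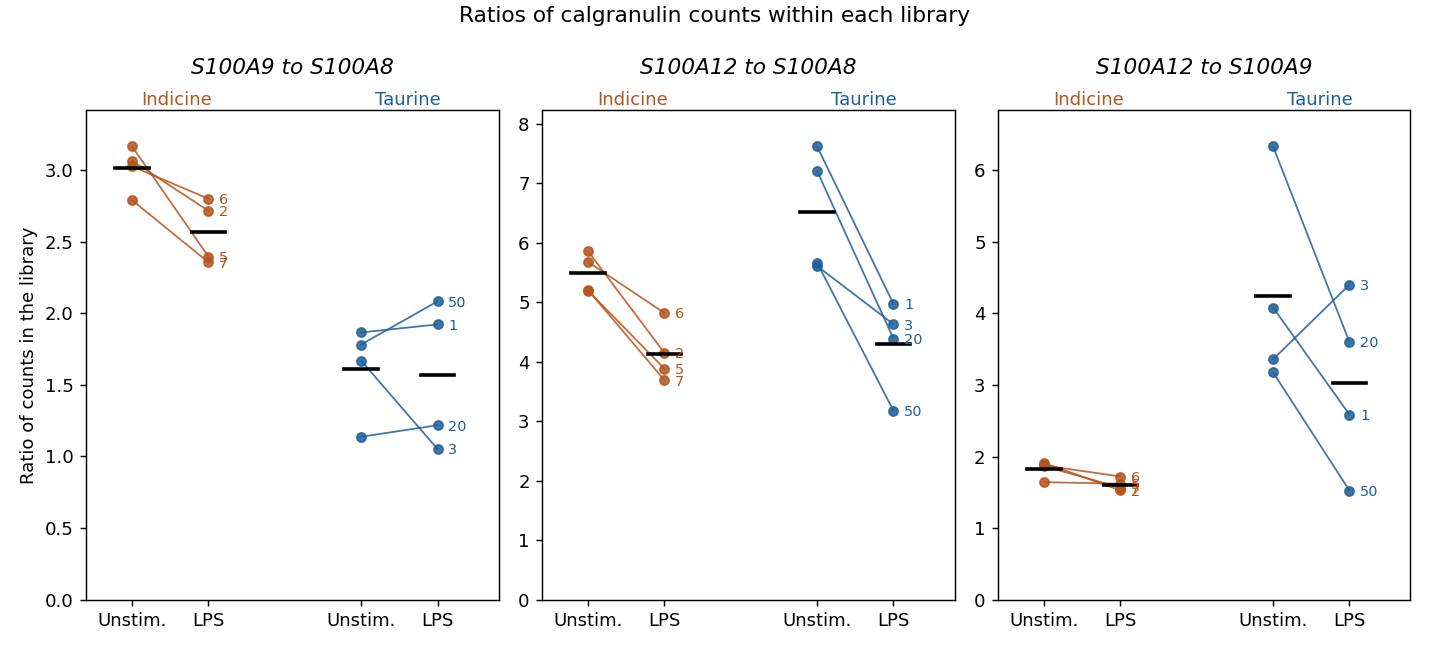
Ratios of the counts of 2 members within each library, on linear axes that start at 0, with lines joining the Unstimulated and LPS treated library of an animal and black bars at the mean of each group of 4. For S100A9 to S100A8 the Indicine points lie between 2.36 and 3.16 and the Taurine points between 1.05 and 2.08, and for S100A12 to S100A8 all 8 lines slope downwards.

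Across the 16 libraries the members followed each other. Over log2(CPM + 1), Pearson's r was 0.98 between S100A8 and S100A12, 0.93 between S100A8 and S100A9 and 0.90 between S100A9 and S100A12. Among the 12967 other genes S100A12 was the closest to S100A8, and S100A8 the closest to S100A12, while S100A9 ranked 4th for S100A8 and 9th for S100A12. With the mean of each breed and stimulus removed, r was 0.97, 0.95 and 0.90 in the same order, so the members also moved together between animals of a group. Outside the members, ENSBTAG00000008259 was the gene most like S100A8 (r = 0.94), with 32.4 to 200.2 CPM in Unstimulated and 126 to 470.1 CPM in LPS treated Indicine MDMs, and with 30.9 to 109 and 244 to 670.1 CPM in Taurine MDMs. The gene most like S100A9 was ENSBTAG00000006132 (r = 0.94), which ranked before both other calgranulins, with 48.1 to 114 CPM without and 114 to 123 CPM with LPS in Indicine MDMs, and 25.2 to 63.5 and 45.8 to 178 CPM in Taurine MDMs. For S100A12 the closest gene outside the members was ENSBTAG00000001321 (r = 0.92), with 145 to 389 CPM without and 911 to 2140 CPM with LPS in Indicine MDMs, and 19.7 to 322 and 327 to 3735 CPM in Taurine MDMs. No symbol is known here for these 3 genes. These correlations are descriptions over libraries that share animals and a stimulus, and points of the same group are not independent.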

How the data were processed

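RNA sequencing of MDMs gave 16 deposited files of raw counts per gene. Per the labels and the study's methods, the authors aligned 100 bp paired-end reads of stranded poly-A libraries with STAR 2.6.0c, kept uniquely mapped reads and counted them with HTSeq 0.10.0. The methods name the assembly ARS-UCD1.2 and the submitters' processing notes name UMD3.1, and reads of both breeds were aligned to the same assembly. The strand setting of the counting is not given in the sources used here. The deposited counts carry no normalization. The 5 counters of reads given to no gene were left out. The counter of low alignment quality equalled that of reads without a unique alignment in all 16 libraries. Without the low-quality counter, the others made up 18.4% to 23.2% of the sum of these counters and the counts. Animal, breed and stimulus were taken from the labels, and no 2 libraries were identical.

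The filter of the study's methods, 1 CPM or more in 4 or more libraries of a contrast, was used, with 3 libraries where an animal was left out of a contrast of 8 libraries. Contrasts were fitted with edgeR 4.0.16 (TMM, quasi-likelihood F test) in R 4.3.3, and called at FDR under 0.05 and absolute log2 fold change of at least 1. Standard errors were taken as log2 fold change over the root of F. Single values were compared by exact two-sided permutation tests (SciPy 1.17.1) on log2(CPM + 1), and ratios on log2 of the counts, each + 1. The 36 exact tests were not corrected for their number. Alternatives were DESeq2 1.42.0 (Wald test, or its size factors), library totals, edgeR's exact test, no filter, a pseudocount of 0.1 CPM, 1 model for all libraries, FDR alone, each animal left out, and the animal as a block. The pairing comes from the animal number in the titles, and the deviations of an animal's 2 libraries from their group means were correlated over genes in 7 of the 8 animals, Indicine animal 2 being the exception (r = 0.021, 0.23, 0.23 and 0.40 in Indicine animals 2, 5, 6 and 7 and 0.73, 0.85, 0.76 and 0.66 in Taurine animals 1, 20, 3 and 50). The scripts were tested on simulated data.

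The members and lists were chosen with earlier results of these data known. The named genes are the members and the gene most like each of them by Pearson's r. The RefSeq table holds 37063 genes and matched 0 of 27607 identifiers, so the lists of other S100 genes, of receptors and of cell type markers, and all sequences, were not analysed here.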

Additional observations from a re-analysis of the deposited data

Results flagged for a closer look

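Of 37 groups of 4 to 8 values checked for a sample far from the others, 1 was flagged, where chance flags about 1 in 20 groups. In Unstimulated Indicine MDMs the ratio of S100A12 to S100A9 counts was 1.64 in animal 5, while the other 3 animals lay between 1.87 and 1.91, and this gap took up 0.835 of the range of the group. The value stayed below all 4 Unstimulated Taurine libraries, the lowest of which was at 3.18.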

How the results depend on the processing

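With all animals kept, and with 1 choice changed at a time or the block and DESeq2 in 1 fit, 171 values kept their direction and their side of the threshold, 21 passed the threshold only under the other setting, 8 of them under the block with DESeq2, and none turned its sign or lost its call. In LPS against Unstimulated MDMs, DESeq2's Wald test called S100A8, S100A9 and S100A12 at 1.47, 1.21 and 1.05 on the log2 scale in the Indicine and 2.72, 2.76 and 1.99 in the Taurine breed. edgeR's exact test called S100A8 and S100A9 at 1.46 and 1.197 in the Indicine and 2.72 and 2.76 in the Taurine breed. The block by animal in edgeR called the 3 genes at 2.77, 2.69 and 2.15 in the Taurine breed. DESeq2 with the block called them at 1.54, 1.31 and 1.13 in the Indicine and 2.76, 2.69 and 2.15 in the Taurine breed, and it called the difference between the breeds in the change with LPS at 1.21 for S100A8 and 1.37 for S100A9. The block changed no other call of a member. The number of genes called with LPS over both breeds was 211, against 709 with the block and 691 by DESeq2, and between 79 and 365 with an animal left out (416 and 854 with the block). With library totals in place of TMM it was 354, of which 114 were higher and 240 lower, against 133 higher and 78 lower with TMM. Library totals in place of TMM moved the median log2 fold change with LPS of all genes to -0.15 in the Indicine breed, -0.20 in the Taurine breed and -0.19 over both, and the members then stood at 1.90, 1.79 and 1.33 over both breeds, with the same calls.

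With 1 animal left out and no block, the fold change over both breeds of S100A9 lay between 1.72 and 2.18 and that of S100A12 between 1.38 and 1.64, each called in 2 of 8 cases. In the blocked fit with 1 animal left out, S100A8 was called in the Indicine breed at 1.28 without animal 2, where 57 genes were called, and at 1.66 without animal 6, where 191 were. In the Taurine breed, the blocked calls lay between 2.57 (without animal 3) and 3.04 (without animal 1) for S100A8, with 2.75 without animal 50. For S100A9 they lay between 2.57 (without animal 50) and 2.92 (without animal 1), and for S100A12 a single call was kept, at 1.84 without animal 3. Uncalled differences between the breeds turned their sign with the animal left out, for S100A9 with LPS between -0.86 and 0.23 in the fit and -0.88 and 0.059 in the exact test, for S100A12 without LPS between -0.85 and 0.023, and for the S100A12 to S100A8 ratio with LPS between -0.036 and 0.18. The change of the S100A9 to S100A8 ratio in Taurine MDMs lay between -0.17 and 0.12. Its difference between the breeds lay between -1.003 and -0.765 without LPS and between -0.92 and -0.59 with LPS, and that of the S100A12 to S100A9 ratio without LPS between 0.95 and 1.28. These 3 differences lost their call, since 3 animals against 4 cannot reach 0.05. The change of the S100A12 to S100A9 ratio over all animals lay between -0.46 and -0.26 and passed the threshold without Taurine animal 3 only. The cause of the other differences between settings was not tested.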
